A study of Mus musculus with 3 samples.

Results

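Among 7 genes of intestinal vitamin A handling, 4 had an ESRRA peak in duodenal villus cells and 3 had none, and Rbp2 held 8 of the 11 peaks found. ESRRA is estrogen-related receptor alpha, a nuclear receptor that acts as a transcription factor. The genes were Rbp2, Lrat, Bcmo1, Isx, Scarb1, Rdh7 and Aldh1a1, and their peaks were chosen by position alone: a peak was taken if its midpoint lay within 30 kb of an annotated start site of one of these genes. The rule took 11 of the 1639 peaks in the list. The run of 8 peaks at Rbp2 was already known when the genes were chosen, so its share of the 11 follows from that choice. The counts and distances in this rule are given as a description and support nothing further.

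ESRRA binding was measured by ChIP-seq, in which chromatin is cross-linked, immunoprecipitated and sequenced. The series held 2 ESRRA ChIP libraries and 1 input library of chromatin taken before immunoprecipitation, all from the duodenal epithelium of wild-type C57BL/6 mice on regular chow, with adult villus cells as the labelled cell type. Both ChIP libraries were merged by the authors before peaks were called, and every value below comes from this 1 list of peaks, each 601 bp wide, with no replicate error and no comparison group. Read depth, the height of each peak and gene expression were not analysed here, so the labelled cell type could not be checked against its marker genes, and all peaks counted the same.

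Dietary vitamin A reaches the enterocyte as retinol or as carotenoids. Carotenoids are taken up by membrane receptors and cleaved to retinal, retinal and retinol are carried on a cellular binding protein, and retinol is esterified and packed into chylomicrons for export. A smaller flow is oxidised to retinoic acid, which activates nuclear receptors and feeds back on uptake and cleavage. ESRRA itself binds DNA at a nuclear receptor half-site, AGGTCA, extended at its 5′ side to TCAAGGTCA, and as a dimer at paired half-sites.

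The sequence in each of the 11 peaks that came closest to TCAAGGTCA is shown first, because it is a stretch most like the sequence ESRRA is known to bind. In 5 peaks more than 1 position had the fewest mismatches, up to 5 positions in Rbp2 peak 2, and the one nearest the midpoint is printed. Each line gives 27 bases of the mm9 genome, 5′ to 3′ on the strand of the match, with the 9 bases compared in capitals. Peaks are numbered along the chromosome within each gene.
Rbp2 peak 1: tagagacatTCAAGCTCTcagagttct
Rbp2 peak 2: ctatcccagTCGAGGACActgaactaa
Rbp2 peak 3: gaagctttgGCAAGGTCAcataccggg
Rbp2 peak 4: ctagtagatGCAAGGTGAggaaatgtt
Rbp2 peak 5: gtcaggagtTCAAGGTCAtccttagca
Rbp2 peak 6: ctctctctcTTCAGGTCAggcttgcac
Rbp2 peak 7: gtggatgtcTCAAAGTCAactctatcc
Rbp2 peak 8: agtctattaTCAAGATGAattgtcaca
Isx peak 1: tcacaaaagTATAGGTCAgagagacaa
Scarb1 peak 1: cacaatgtgTCAAGGTGAggcaccctc
Rdh7 peak 1: atagagccaTCAAGGTCAgaaggctct
Rbp2 peak 5 and Rdh7 peak 1 matched all 9 bases. Rbp2 peak 3, Rbp2 peak 7 and Scarb1 peak 1 each had 1 mismatch, and the other 6 peaks had 2. Each is the best match in 601 bp searched on both strands, so a near match alone is no sign of binding. A match with up to 1 mismatch was in 5 of the 11 peaks, 46.3% of all peaks and 19.4% of windows 2 kb beside the peaks. No such share was counted for 2 mismatches.

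The central 300 bases are shown for the peak at the Rbp2 promoter and for the 4 peaks that held AAGGTCA, the shorter extended half-site. The sequences are on the plus strand of mm9, and capitals mark each AGGTCA or its reverse complement, with the preceding bases included where they made AAGGTCA or TCAAGGTCA.
Rbp2 peak 1, chr9:98391416-98391715: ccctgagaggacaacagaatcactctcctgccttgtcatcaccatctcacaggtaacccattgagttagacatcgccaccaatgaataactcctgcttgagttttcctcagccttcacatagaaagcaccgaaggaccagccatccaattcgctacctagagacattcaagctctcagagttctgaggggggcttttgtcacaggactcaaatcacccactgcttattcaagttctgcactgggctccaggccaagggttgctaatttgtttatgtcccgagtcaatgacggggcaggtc
Rbp2 peak 2, chr9:98396728-98397027: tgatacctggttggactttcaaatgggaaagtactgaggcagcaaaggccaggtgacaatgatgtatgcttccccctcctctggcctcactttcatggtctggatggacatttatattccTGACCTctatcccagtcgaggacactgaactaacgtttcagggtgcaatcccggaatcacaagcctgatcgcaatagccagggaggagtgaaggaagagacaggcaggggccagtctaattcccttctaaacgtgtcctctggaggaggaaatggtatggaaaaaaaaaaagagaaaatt
Rbp2 peak 3, chr9:98398548-98398847: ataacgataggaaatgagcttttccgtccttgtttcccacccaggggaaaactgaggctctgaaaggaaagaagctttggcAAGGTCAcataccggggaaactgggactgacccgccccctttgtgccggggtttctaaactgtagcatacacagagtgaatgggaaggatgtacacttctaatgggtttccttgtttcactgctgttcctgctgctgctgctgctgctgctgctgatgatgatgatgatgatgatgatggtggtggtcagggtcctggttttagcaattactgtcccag
Rbp2 peak 5, chr9:98407128-98407427: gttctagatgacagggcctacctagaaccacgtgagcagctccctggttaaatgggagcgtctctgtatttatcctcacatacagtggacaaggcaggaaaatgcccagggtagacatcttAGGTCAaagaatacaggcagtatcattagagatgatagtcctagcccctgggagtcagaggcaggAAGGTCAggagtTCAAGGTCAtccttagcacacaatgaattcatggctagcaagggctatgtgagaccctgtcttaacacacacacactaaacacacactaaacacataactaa
Rdh7 peak 1, chr10:127330281-127330580: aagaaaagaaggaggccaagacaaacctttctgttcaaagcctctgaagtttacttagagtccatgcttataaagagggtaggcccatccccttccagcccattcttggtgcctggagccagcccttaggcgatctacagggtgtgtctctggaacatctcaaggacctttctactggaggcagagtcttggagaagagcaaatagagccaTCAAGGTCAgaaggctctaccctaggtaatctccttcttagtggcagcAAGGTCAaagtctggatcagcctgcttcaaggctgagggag
No capitals stand in Rbp2 peak 1, which held no AGGTCA. In Rbp2 peak 2 the AAGGTCA lay 182 bp from the midpoint and so outside the bases shown, and the capitals there mark a plain half-site.

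Rbp2 encodes cellular retinol-binding protein II, which carries retinol and retinal inside the enterocyte and delivers retinol for esterification. Its gene (ENSMUSG00000032454.3) lies on the plus strand at chr9:98390956-98410190 in mm9, has 4 exons over 19.2 kb and 1 annotated start site. All 8 peaks were downstream of that start site and none was upstream.

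The first peak, at chr9:98391265-98391865, had its midpoint 609 bp past the start site, in intron 1, and was the only promoter peak (within 1 kb of a start site) among the 7 genes. The second, chr9:98396577-98397177, lay 5921 bp past the start site and the third, chr9:98398397-98398997, 7741 bp past it. Both were also in intron 1. Intron 2 held the fourth peak, chr9:98402864-98403464, at 12208 bp, and the fifth, chr9:98406977-98407577, at 16321 bp.

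The remaining 3 peaks lay past the 3′ end of the gene. The sixth, chr9:98412418-98413018, had its midpoint 2528 bp past the end, the seventh, chr9:98413345-98413945, 3455 bp past it, and the eighth, chr9:98413977-98414577, 4087 bp past it. None of the 8 peaks touched an exon of Rbp2, and the first began 309 bp after the start site. The 5 peaks in the gene body covered 3005 bp of it, or 15.6%.

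**Figure D1:**
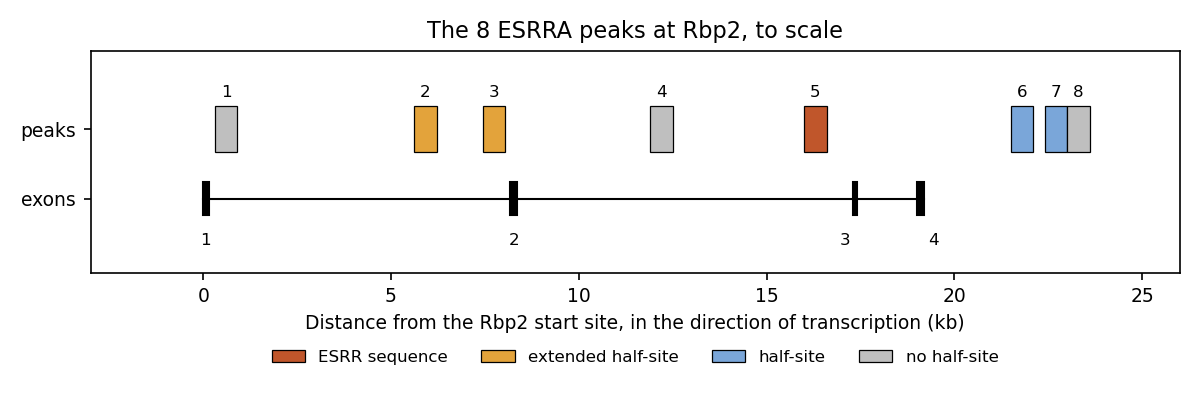
The 8 ESRRA peaks at Rbp2, with distance from the start site in kb on the x axis, the 4 exons of the gene as black blocks and each peak drawn to scale, coloured by the longest sequence it held (TCAAGGTCA as the ESRR sequence, AAGGTCA as the extended half-site, AGGTCA as the half-site, or none). All peaks sit to the right of the start site, 5 within introns 1 and 2 and 3 past the 3′ end.

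The 8 peaks formed 1 run of 23.3 kb, from the start of the first to the end of the last. Midpoints of neighbouring peaks were between 632 and 5441 bp apart, with a median of 4113 bp. The last 3 were the closest together, and only 31 bp separated the edges of the seventh and the eighth. With peaks less than 1 kb apart joined, the run counted 6 peaks. Beyond the run the next peak to either side was far off: the nearest peak outside the 30 kb limit was 752 kb from the Rbp2 start site and had Cep70 as its nearest gene. The eighth peak, at 23321 bp, was thus the last inside the limit, and widening it to 100 kb added none. No start site of any other gene was within 30 kb of an Rbp2 peak.

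Isx encodes an intestinal homeobox repressor that acts on Bcmo1 and Scarb1 when retinoic acid is plentiful. Its gene (ENSMUSG00000031621.3, plus strand, chr8:77396618-77417405) had 1 peak, at chr8:77420860-77421460. This peak was 23721 bp past the nearest of 2 start sites and 3755 bp past the 3′ end, in intergenic sequence, with no other gene start within 30 kb. No second peak lay nearer than 1927.9 kb.

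Scarb1 encodes scavenger receptor class B member 1, which takes up carotenoids and other lipids at the brush border. Its gene (ENSMUSG00000037936.9, minus strand, chr5:125757457-125821464) has 10 start sites and had 1 peak, at chr5:125845124-125845724, which was 23960 bp upstream of the gene in intergenic sequence. Gm10382 also had a start site within 30 kb of this peak, 24268 bp away. The first peak outside the limit was 45399 bp from a Scarb1 start site. The Scarb1 and Isx peaks were the 2 closest to the limit from inside.

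Rdh7 encodes a member of the retinol dehydrogenase family. Its gene (ENSMUSG00000040134.7, minus strand, chr10:127321084-127326095) had 1 peak, at chr10:127330130-127330730, in intergenic sequence 4335 bp upstream of the nearest of 3 start sites. The same peak was 5144 bp from a start site of Sdr9c7, 26872 bp from one of BC089597 and 27693 bp from one of the pseudogene Gm15905. The first peak outside the limit was 66.3 kb from an Rdh7 start site.

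Lrat, Bcmo1 and Aldh1a1 had no peak within 30 kb of a start site, nor within 100 kb. Lrat (ENSMUSG00000028003.6, chr3:82696501-82707895) encodes lecithin retinol acyltransferase, which esterifies the retinol that RBP2 delivers, and its nearest peak was 508 kb away. For Bcmo1 (ENSMUSG00000031845.8, chr8:119619754-119657397), which encodes the oxygenase that cleaves beta-carotene to retinal, the distance was 238 kb. For Aldh1a1 (ENSMUSG00000053279.6, chr19:20676451-20717952), which encodes a retinal dehydrogenase that makes retinoic acid, it was 557 kb. A peak too weak to pass the threshold of the authors would not be in the list, so these are distances to listed peaks and not a measure of no binding.

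**Figure D2:**
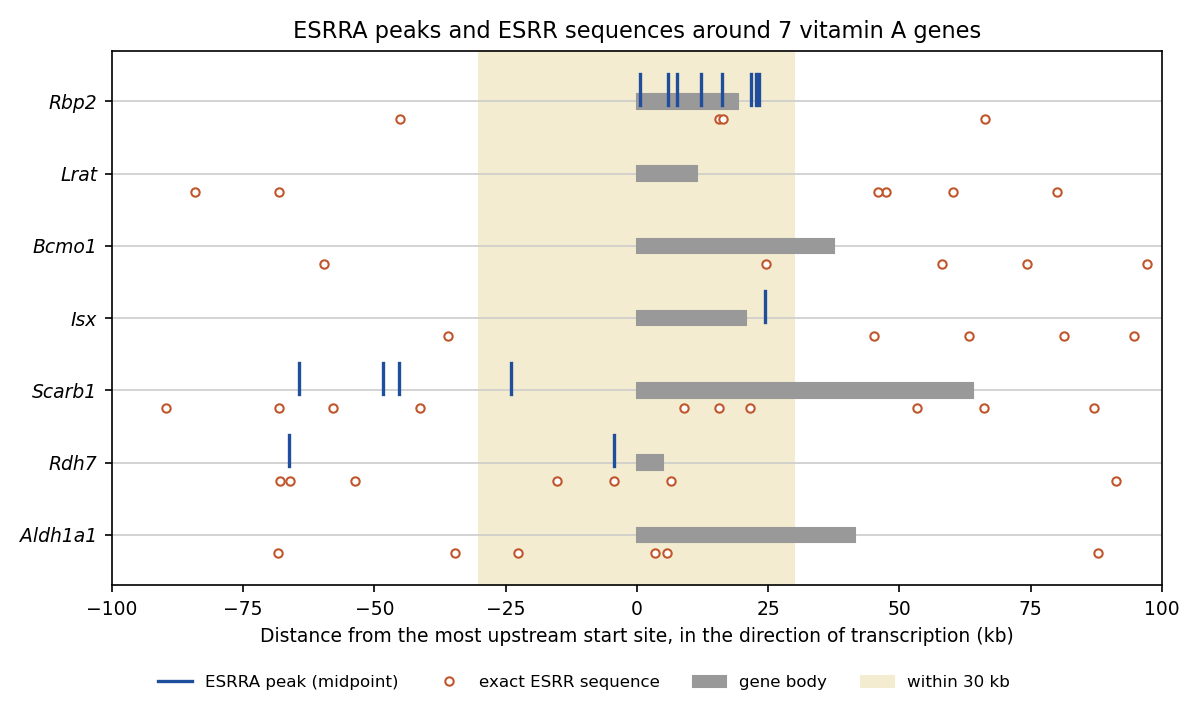
Position of the ESRRA peaks near the 7 vitamin A genes, with distance in kb from the most upstream start site of each gene on the x axis, gene bodies as grey bars, peak midpoints as blue marks, TCAAGGTCA as open circles and 30 kb to either side of that start site shaded. Scarb1, Isx, Rdh7 and Bcmo1 have further start sites, from which the counts were also taken. The 8 peaks of Rbp2 fill the span from its start to past its end, Isx, Scarb1 and Rdh7 have 1 each within 30 kb of a start site, and Lrat, Bcmo1 and Aldh1a1 have none.

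Of all 22367 annotated protein-coding genes, 8.75% had a peak within 30 kb of a start site and 2.08% within 1 kb. Among the 7 genes the counts were 4 and 1. Since the rule is built on these distances, nothing is read from the difference.

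Most genes with a peak had a single one: 1497 of 1956, or 76.5%. Only 16 genes had 8 or more peaks within 30 kb. Of the 13 with more than 8, 12 were predicted genes in a stretch near 3.0 Mb on chromosome 9, where at most 1 of the peaks counted for a gene was in single-copy sequence. A peak was called single-copy if its 24-base words occurred at a median of at most 10 places in the genome, and all 8 Rbp2 peaks had a median of 1. Counting single-copy peaks alone, 1 gene had more than Rbp2, Slc5a1, which encodes the sodium-glucose cotransporter of the brush border, with 12. Plac8 and Atp1b1 also had 8. Because Rbp2 was chosen with its peaks known, its place in this ranking is a description only.

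**Figure D3:**
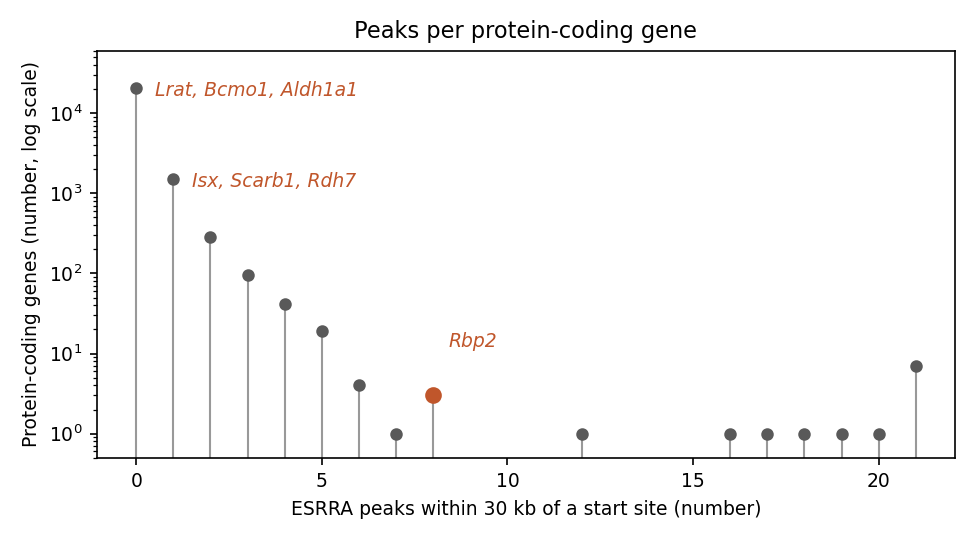
Number of protein-coding genes (y axis, log scale) by the number of ESRRA peaks within 30 kb of a start site (x axis). Each point on a line is 1 number of peaks: the point at 1 stands for 1497 genes, Isx, Scarb1 and Rdh7 among them, and that at 8 for Rbp2 and 2 other genes.

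The 5 genes most like Rbp2 in number of peaks, and then in how many of those held AAGGTCA, were Plac8, Atp1b1, Mgam, Apoa1 and Ezr. Sik3 had the same counts as Apoa1 and Ezr, 6 peaks of which 3 held AAGGTCA, and came after them in the alphabet alone. Plac8 had 8 peaks, 6 of them downstream of the start site, and Atp1b1, which encodes the beta subunit of the sodium pump, also had 8 with 6 downstream. Mgam, which encodes the brush-border enzyme maltase-glucoamylase, had 7 peaks with 4 downstream. Apoa1, an apolipoprotein gene, and Ezr, which encodes the microvillus protein ezrin, had 6 each, with 4 and 5 downstream. Having every peak downstream was not particular to Rbp2: of 40 protein-coding genes with 5 or more peaks it held for 9, among them Muc13, a mucin gene with 6 peaks. Over all 2912 pairs of a peak and a gene within 30 kb the share downstream was 55.7%.

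Runs of peaks, in which each peak lay within 30 kb of the next, were also counted. The list held 22 runs of 5 or more peaks and 8 runs of 8 or more. The run at Rbp2, over 23.3 kb, was the shortest of these 8, whose spans reached 70.4 kb. The other runs of exactly 8 were at Atp1b1 over 24.3 kb, Plac8 over 24.5 kb and Mgam over 46.4 kb. AAGGTCA was in 5, 2 and 3 of their peaks, respectively, and in 3 of the Rbp2 peaks.

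Extended half-sites were present in a minority of the vitamin A peaks. AAGGTCA, searched on both strands, was in 4 of the 11 peaks (36.4%, 95% Wilson interval 15.2 to 64.6%), against 44.0% of all peaks, 51.4% of the single-copy peaks and 12.6% of 3074 flanking windows placed 2 kb to either side of all peaks. The full TCAAGGTCA, which contains AAGGTCA, was in 2 of the 11 (18.2%, 5.14 to 47.7%). It was in 14.3% of all peaks, 17.7% of the single-copy peaks and 1.59% of the flanks. All 11 peaks were single-copy. Both intervals hold the shares over all peaks, so no difference from the rest of the list was detectable with 11 peaks. The intervals cover counting error only, and peaks of 1 run are not independent.

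At Rbp2 alone, 3 of 8 peaks held AAGGTCA and 1 held TCAAGGTCA. The plain half-site AGGTCA, contained in both, was in 5 of the 8 and in 7 of the 11. It was in 61.4% of all peaks, 69.9% of the single-copy peaks and 34.2% of the flanks. Single-copy peaks with no neighbour within 30 kb held AAGGTCA in 60.8% of 780, while the 144 single-copy peaks within the 22 runs of 5 or more, among them the 8 at Rbp2, held it in 25.7%. Of the 17 runs of this length in which every peak was single-copy, 3 had no AAGGTCA in any peak.

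**Figure D4:**
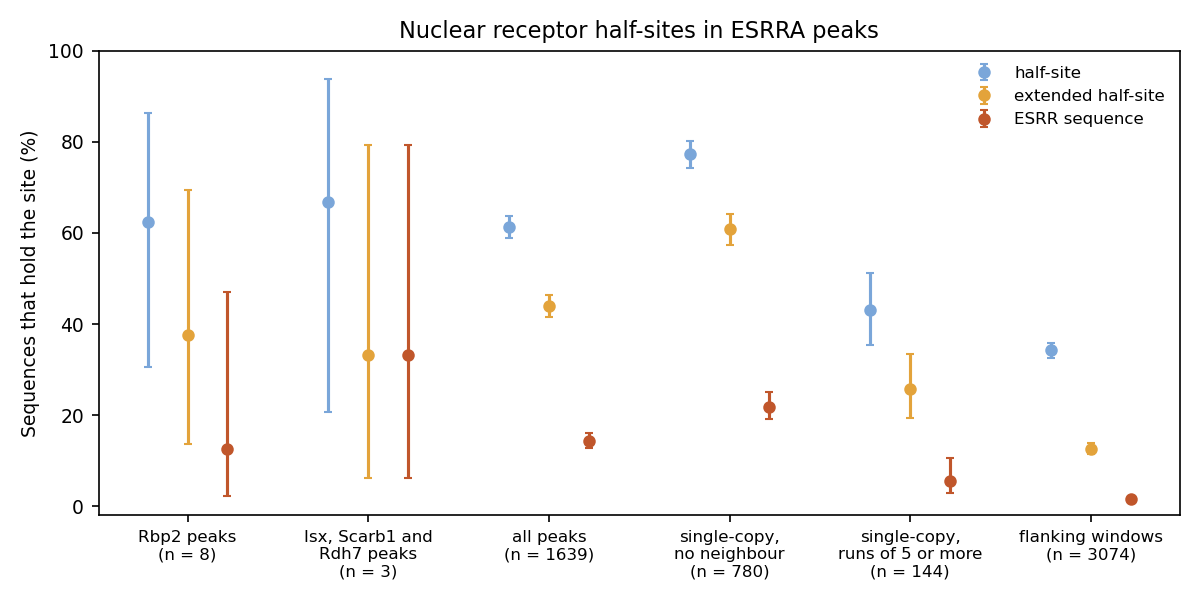
Percent of regions that hold each of the 3 half-site sequences (y axis) in the 8 Rbp2 peaks, the 3 peaks of Isx, Scarb1 and Rdh7, all peaks, single-copy peaks with no neighbour or in runs of 5 or more, and flanking windows: half-site AGGTCA, extended half-site AAGGTCA and ESRR sequence TCAAGGTCA. Points are shares and bars 95% Wilson intervals, and those of the vitamin A gene peaks are wide enough to hold the shares over all peaks.

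Rbp2 peak 5, in intron 2, had the most sites of the 11: 3 half-sites, of which 2 were AAGGTCA and 1 of these TCAAGGTCA. The AAGGTCA sites, at chr9:98407314-98407320 and chr9:98407328-98407334, lay 40 and 54 bp from the midpoint on the same strand, with 7 bases between them. The 16-base word around the second occurred 1108 times in the genome and that around the first 48 times. In Rbp2 peak 3 the AAGGTCA, at chr9:98398629-98398635, lay 65 bp from the midpoint and its word occurred 4 times. The one in Rbp2 peak 2, at chr9:98396692-98396698, was 182 bp off centre and its word occurred once.

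Rdh7 peak 1 held the other pair of AAGGTCA sites. That at chr10:127330494-127330500, within TCAAGGTCA, was 67 bp from the midpoint with a word found 109 times, and that at chr10:127330540-127330546 was 113 bp away with a word found 415 times. Of the 24-base words of this peak, 28% occurred more than 10 times in the genome, the highest share among the 11 peaks. For the 996 AAGGTCA sites in single-copy peaks over the whole list, the median distance from the midpoint was 80 bp and 35.8% were within 50 bp. Of the 6 sites at Rbp2 and Rdh7, 1 was within 50 bp.

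A match to TCAAGGTCA near these genes mostly lay outside peaks. Within 30 kb of the start sites of the 7 genes there were 14 matches, of which 2 were in a peak. Scarb1, with 10 start sites, had 5 and none was in its peak. Bcmo1 and Aldh1a1, which had no peak, had 1 and 3 matches, whereas Lrat and Isx had none, the nearest being 45.9 and 36 kb away.

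Rbp2 had 2 matches, one in peak 5 and one at chr9:98406581-98406589, 692 bp from the midpoint of peak 5 and outside it. Rdh7 had 3, of which 1 was in its peak. Of the 14 matches, 6 had a 16-base word found more than 100 times in the genome, the 2 inside peaks among them. Over the genome this was so for 15.6% of the matches inside a peak and 25.3% of those outside. Over the genome 320 of 56720 matches were in a peak (0.564%), and 80.3% of protein-coding genes had at least 1 match within 30 kb of a start site.

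The sequence just upstream of Rbp2 and Bcmo1 is shown because both held, outside any peak, AGGTCA repeated in the same direction with 1 base between, with up to 2 mismatches. Each line gives the 250 bases before the start site on the plus strand of mm9, with the half-sites, which read on the reverse strand, in capitals.
Rbp2, chr9:98390706-98390955: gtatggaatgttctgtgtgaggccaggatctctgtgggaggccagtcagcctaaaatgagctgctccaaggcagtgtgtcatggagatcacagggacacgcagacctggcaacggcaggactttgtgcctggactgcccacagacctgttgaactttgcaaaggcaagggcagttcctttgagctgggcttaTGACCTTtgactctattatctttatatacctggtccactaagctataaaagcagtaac
Bcmo1, chr8:119619504-119619753: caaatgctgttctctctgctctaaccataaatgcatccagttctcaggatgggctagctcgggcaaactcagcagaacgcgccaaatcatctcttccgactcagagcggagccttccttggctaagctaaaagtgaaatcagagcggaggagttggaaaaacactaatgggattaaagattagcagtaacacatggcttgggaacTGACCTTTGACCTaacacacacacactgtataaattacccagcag
In Rbp2 the AAGGTCA lay 58 to 52 bp upstream of the start site, and the nearest match there to AGGTCA repeated in the same direction with 1 base between had 2 mismatches. In Bcmo1 that direct repeat was exact and lay 45 to 33 bp upstream. In 32851 RefSeq promoters of the GRCm38.p6 build, taken from 250 bases before to 50 after each start, the exact repeat was in 13, or 0.0396%, and AAGGTCA was in 4.72%. The repeat with up to 2 mismatches, as at Rbp2, was in 1268 of these promoters, or 3.86%.

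RefSeq gave a promoter for 6 of the 7 genes, all but Scarb1. AAGGTCA was in those of Rbp2 and Bcmo1 (named Bco1 there), and the exact repeat in that of Bcmo1 alone. The plain AGGTCA was in these and also in a promoter of Rdh7, beside 16.3% of the 32851 promoters. None of the member promoters that could be placed in mm9 overlapped an ESRRA peak, and that of Rbp2 was the nearest, with its start 609 bp from a peak midpoint. None of the 11 peaks held the direct repeat, which was in 6 of all 1639.

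By position, 1 of the 11 peaks was at a promoter, 4 were in introns and 6 were intergenic. Over all peaks 29.8% were at promoters, 29.2% in introns and 35.3% intergenic. The GC content of the 11 had a median of 46.1%, against 48.8% over all peaks, and at Rbp2 it ran from 39.3% in peak 4 to 49.3% in peak 2.

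Beyond the 7 genes, 49 others of the retinoid pathway were listed by role, and 7 of them (14.3%) had a peak within 30 kb of a start site, beside 8.75% of all protein-coding genes. The 7 fell in 2 of the 8 roles. Of 17 retinol dehydrogenase genes 5 had a peak, as did 2 of 7 genes of ester synthesis and hydrolysis. None of the 8 binding and transport genes, the 6 retinoic acid and retinoid X receptor genes, the 4 retinal dehydrogenases, the 4 genes of retinoic acid breakdown, the 2 genes of carotenoid cleavage and isomerisation, or Cd36 had one.

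Dgat1, which encodes an acyltransferase that makes triglyceride and can also esterify retinol, had 4 peaks. Their midpoints were 630, 662, 1950 and 4833 bp past the nearest of its start sites, which was not the same site for all. The peaks at 630 and 662 bp were in introns 1 and 2, and those at 1950 and 4833 bp were past the 3′ end of Dgat1. The peak at 4833 bp lay in an intron of another annotated gene, though its nearest start site was that of Dgat1. Of the 4 peaks, 2 held AAGGTCA. Dgat2, the other acyltransferase of triglyceride synthesis, had 1 peak, 21.1 kb past its start in intron 4, with AAGGTCA. The start site nearest to this Dgat2 peak was that of another gene, Uvrag, and the peak lay upstream of it.

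Rdh13 and Rdh14, both retinol dehydrogenase family genes, had a peak 162 and 282 bp past a start site, each with TCAAGGTCA. Dhrs3, whose product reduces retinal back to retinol, had a peak in intron 2 at 8.5 kb, with AAGGTCA. Adh1 and Adh7, alcohol dehydrogenase genes whose products also oxidise retinol, shared 1 peak between them, at chr3:137904281-137904881, which was 19.4 and 23.8 kb from their start sites and held TCAAGGTCA. Just outside the limit were Rxrb at 31.9 kb and Rbp7 at 37.6 kb.

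**Figure D5:**
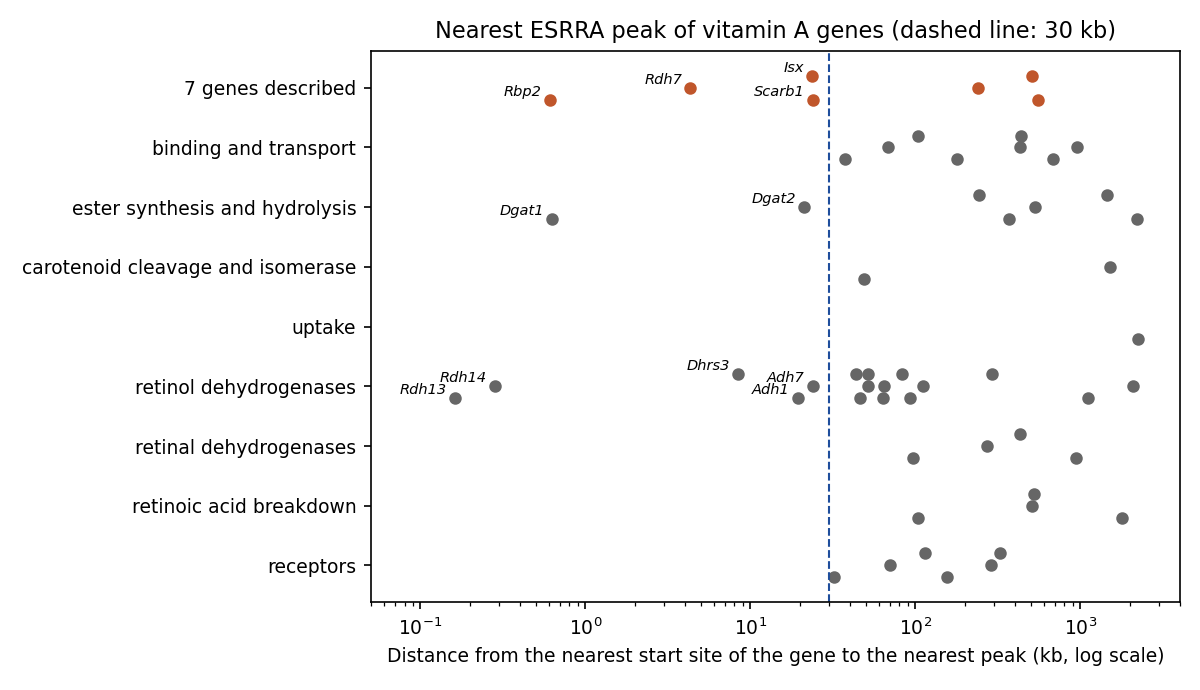
Distance in kb (x axis, log scale) from a start site of each vitamin A gene to its nearest ESRRA peak, by role on the y axis, with 1 point for each gene and a dashed line at 30 kb. Besides the 4 genes described first, Dgat1, Dgat2, Rdh13, Rdh14, Dhrs3, Adh1 and Adh7 lie left of the line.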

How the data were processed

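Villus cells of the duodenal epithelium were profiled in 2 ESRRA ChIP libraries and 1 input library, grouped by title. The authors checked reads with FastQC 0.11.3, aligned them to mm9 with Bowtie2 2.2.6, merged the ChIP libraries with SAMtools 0.1.19 and called peaks with MACS2 at a p-value of 1e-05. The submitters' processing notes also name deepTools 2.4.2. How the peaks came to have 1 width, and any masking of repeats, are not given in the sources used here. The deposited values were start and end positions in base pairs, with no score. Merging hides peaks that were in 1 library alone, and depth is unknown from the list.

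Positions are counted from 1. Distances ran from the peak midpoint to the nearest GENCODE M1 transcript start site, in the mm9 sequence. Motif matches were exact and on either strand, and words of 24 and 16 bases were counted on both strands of the genome. The functions were tested on simulated data. Python 3.11.15 and NumPy 2.4.6 were used. No test was run, since the list holds no replicate values. Named genes were the 7 members, genes starting within 30 kb of a member peak, retinoid pathway genes with a peak, and the 5 genes most like Rbp2 in number of peaks. Not every gene near a member peak is reported here. Sequences were shown for peaks at a promoter or with AAGGTCA. The upstream sequences of Rbp2 and Bcmo1 were added because of the half-sites they held. Genes named beside a count outside this rule (Slc5a1, Cep70, Muc13, Sik3, and Rbp7, Rxrb and Uvrag for their distance) were chosen after their values were seen. The members and lists were chosen with earlier results of these data known. The alternatives were other link and promoter distances, protein-coding transcripts alone, single-copy peaks alone, joined peaks, and looser or more central motif matches.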

Additional observations from a re-analysis of the deposited data

How the results depend on the processing

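Of 40 alternative values for 8 counts, 30 stayed within 1.5 times the value reported. Some of the 30 could not have changed. All 11 peaks were single-copy, so leaving out multi-copy peaks removed none of them. Gap limits of 10, 50 and 100 kb could not alter the Rbp2 run. Its largest gap was 5441 bp, and the nearest peak outside it was 752 kb from the start site. With 10 kb in place of 30 kb, 2 genes, Rbp2 and Rdh7, had a peak, there were 4 peaks in all and 3 at Rbp2, and 4 pathway genes had one. Pathway genes with a peak rose to 12 at 50 kb and 21 at 100 kb. With peaks less than 1 kb apart joined, the 11 peaks became 9, of which 6 were at Rbp2. With 1 mismatch allowed, 11 of the 11 peaks held AAGGTCA (93.3% of all peaks) and 5 held TCAAGGTCA (46.3% of all peaks). With promoters set at 0.5 kb none of the 7 genes had a promoter peak, 0 in all, and at 5 kb 2 had one, Rbp2 and Rdh7. No paired analysis was possible because the deposited positions carry no values for each replicate. For the same reason leaving out either ChIP library, a replicate block and a stricter p-value were not run. Signal strength and depth, which limit what a missing peak can show, were not analysed here.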

Other observations

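The 11 peaks were also searched, on both strands, for sequences bound by other transcription factors of the intestinal epithelium. The GATA factor sequence AGATAA was in 3 of the 11 (27.5% of all peaks), and TTTATNG, bound by caudal homeobox factors, in 2 (25.4% of all peaks). GTTAAT, a half-site of HNF1, was in 2 (17.3% of all peaks), the homeobox sequence TAATTA in 2 (10.7% of all peaks) and the KLF sequence CCACACCC in 1 (7.63% of all peaks). Neither CAAAGTCCA, bound by HNF4, nor TGANTCA, bound by AP-1, was in any of the 11, while 2.56% and 17.4% of all peaks held them. ACTGGAACT, the ESRR sequence written backwards as a control, was in 0 of the 11 and in 0.427% of all peaks. Flanking windows of all peaks held AGATAA in 27.8%, TTTATNG in 26.7%, GTTAAT in 17.7%, TAATTA in 13.6% and CCACACCC in 4.85%. They held CAAAGTCCA in 1.17%, TGANTCA in 16% and ACTGGAACT in 1.07%. The counts for the 11 peaks are counts of letters in 11 windows and were not tested.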
